A study of Mus musculus with 7 samples.

Results

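The sites described here are stretches of mouse DNase hypersensitive chromatin whose reporter output lay above the average site with both the SCP1 and the pPGK promoter. They are 500 bp bins of the mm9 genome, and 782 of 30946 bins with enough input reads (2.53%) met the rule. A bin was a member when its activity was at least 0.8, or 1.74-fold, with each of these promoters in unstimulated cells. Activity is the log2 ratio of reporter RNA reads to plasmid input reads, with a pseudocount of 1 and each count scaled to its total over the 30946 kept bins. A kept bin had at least 50 input reads in each of the SCP1, pPGK and pR-Ea inputs. The SCP1 and pPGK values chose the members, so they are given below as a description, and values with pR-Ea and in stimulated cells are set beside them.

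All samples are P5424 cells, an immature T cell line from a mouse thymic tumour, and the assay was CapStarr-seq. The labels give 4 reporter libraries, 1 each for SCP1, pPGK PMA_I, pPGK and pR-Ea, and 1 input library each for SCP1, pPGK and pR-Ea. PMA_I stands for PMA and ionomycin. The treatment field of the labels names these agents for every sample, so the stimulus was assigned from the title of that 1 library. With 1 library per group no difference below has a replicate check, and no p-value is given. The cells are 1 line carrying transfected plasmids, and nothing here measures the same sites at their own place in the chromosome.

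In a self-transcribing reporter assay a DNA fragment is cloned behind a promoter, into the transcript itself. A fragment with enhancer activity raises transcription of its own plasmid, so its sequence becomes more frequent in the RNA than among the plasmids. Promoters differ in which enhancers they answer to. SCP1 is an artificial core promoter that joins a TATA box to other core motifs, and pPGK comes from the phosphoglycerate kinase gene, which nearly every cell expresses. What pR-Ea stands for is not given in the sources used here. PMA activates protein kinase C and ionomycin raises calcium, so that the pair stands in for T cell receptor signalling. No neutral insert served as a baseline here: a member is a site above the average of the kept bins, which is less than a demonstration that it is an enhancer. Gene names, motifs and sequences are not given, because the reference used here belongs to another build than these files.

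Reads in kept bins numbered 35631136 in the SCP1 reporter and 28110981 in its input. The pPGK PMA_I reporter had 31440889 and the pPGK reporter 27336124, over inputs of 14624966 and 11460124 as listed in their own files. The pR-Ea reporter had 29883342 and its input 11031471. The median member had 1702.5 reporter and 544.5 input reads with SCP1, 1029.5 and 200 in pPGK PMA_I, 974.5 and 185.5 with pPGK, and 626.5 and 185 with pR-Ea. Input depth in members was thus near that of all kept bins, whose median input was 504 reads for SCP1, 205 for PMA_I, 190 for pPGK and 189 for pR-Ea.

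The values that chose the members spanned a wide range with both promoters. SCP1 activity in members ranged from 0.80 to 3.94 with a median of 1.17, and pPGK activity from 0.80 to 3.20 with a median of 1.07. Of the 782 members, 358 were at or above 1 with both promoters, 58 at or above 1.5 and 19 at or above 2. Of the reads in kept bins they held 8.01% in the SCP1 reporter against 2.61% in its input, and 6.45% in the pPGK reporter against 2.65% in its input. SCP1 activity was the higher one in 506 members and pPGK activity in 276. A gap of at least 1 in favour of SCP1 was seen in 39 members, and none had such a gap in favour of pPGK.

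**Figure D1:**
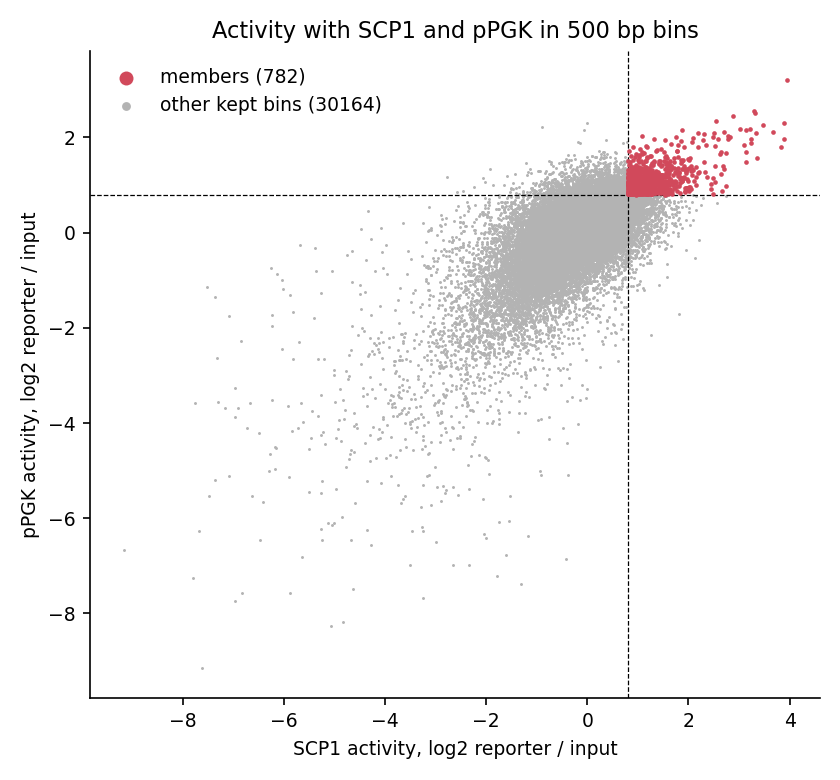
Each point is a 500 bp bin, placed by its SCP1 activity (x) and pPGK activity (y), both as log2 of reporter over input. The 782 members (red) fill the corner above 0.8 on both axes, and the strongest of them reaches 3.94 with SCP1 and 3.20 with pPGK.

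The strongest member, ranked by the lower of its SCP1 and pPGK activities, was chromosome 8, 90579001 to 90579500. It had 11306 reporter and 580 input reads with SCP1, an activity of 3.94 (SE 0.15 over distinct positions). With pPGK it had 3933 reporter and 178 input reads, an activity of 3.20 (SE 0.31). Its pR-Ea counts were 1183 and 273, an activity of 0.67 (SE 0.12), so this site was far above average with SCP1 and pPGK and less far above it with pR-Ea. In pPGK PMA_I it had 4814 reporter reads and an activity of 3.11. A position is a distinct 5′ end of a read, and the SE treats positions as independent within 1 library.

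Second was chromosome 7, 149853501 to 149854000, which combined high activity with great depth. It had 75438 reporter and 6047 input reads with SCP1, an activity of 3.30 (SE 0.10). With pPGK the counts were 34708 and 2479, an activity of 2.55 (SE 0.08). With pR-Ea they were 12540 and 2044, an activity of 1.18 (SE 0.04), which was the highest pR-Ea value among the 10 strongest sites. PMA_I activity was 2.49.

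Rank 3 was chromosome 2, 93400001 to 93400500, with activities of 3.31 (SE 0.09) for SCP1, 2.52 (SE 0.09) for pPGK and 0.74 (SE 0.09) for pR-Ea. Rank 4 was chromosome 11, 43313001 to 43313500, with 2.88 (SE 0.41), 2.46 (SE 0.29) and 0.22 (SE 0.36). That site was thin, with 60 pPGK input reads and 44.8% of its SCP1 reporter reads at a single position, and its pR-Ea value was within 1 SE of the average. The fifth, chromosome 11, 23914001 to 23914500, had 77300 reporter and 5523 input reads with SCP1 and activities of 3.46 (SE 0.08), 2.25 (SE 0.07) and 0.67 (SE 0.04). Ranks 6 to 10 were chromosome 19, 43786001 to 43786500, chromosome 17, 87738501 to 87739000, chromosome 6, 124986001 to 124986500, chromosome 2, 6265501 to 6266000, and chromosome 6, 67509001 to 67509500. In those 5 sites SCP1 activity ran from 2.51 to 3.67, pPGK activity from 2.10 to 2.19 and pR-Ea activity from 0.23 to 0.80. All 10 sites had a pR-Ea activity above 0. That it was below the SCP1 and pPGK values follows from ranking by those values. Mapping quality, described with the stimulated library below, bears on these sites: between 52.0% and 60.5% of pPGK reporter reads were left out for a low score at ranks 1, 3, 9 and 10, and between 4.53% and 36.4% at the others. Without the score filter pPGK activity was 2.94 at rank 1, 2.43 at rank 3, 1.76 at rank 9 and 1.98 at rank 10.

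**Figure D2:**
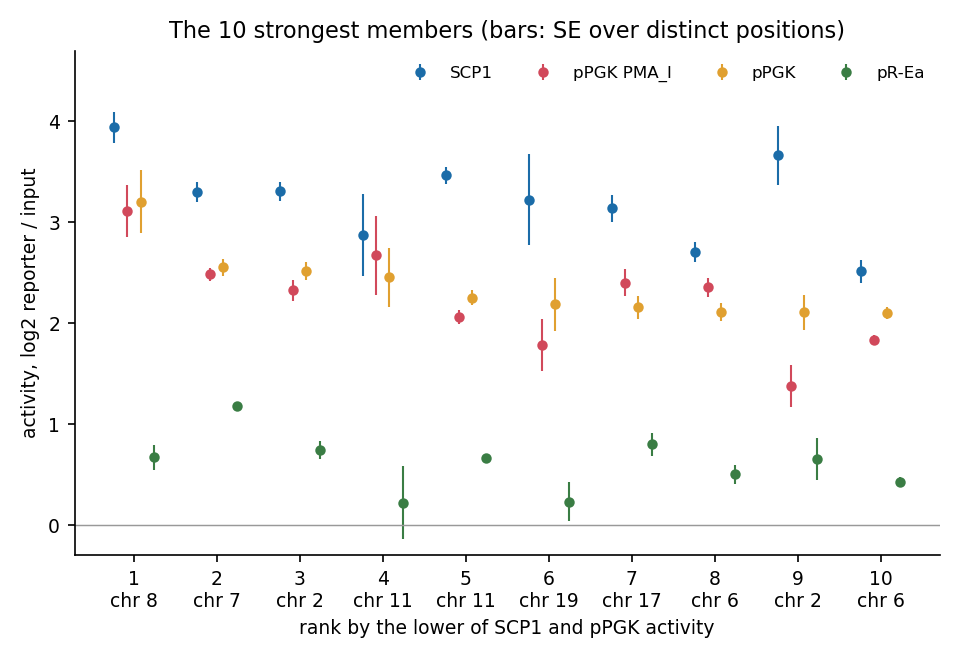
Activity (y, log2 reporter over input) of the 10 strongest members (x, by rank, with the chromosome), in each of the 4 reporter libraries; bars are the SE over distinct positions. SCP1 values lie highest and pR-Ea values lowest in every site, with pR-Ea between 0.22 and 1.18; PMA_I and pPGK values lie between, farthest apart at rank 9, with 1.38 and 2.11.

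The 5 members with most input reads had SCP1 and pR-Ea errors well below the median member. Chromosome 18, 42683501 to 42684000, had 94395 reporter and 10521 input reads with SCP1, an activity of 2.82 (SE 0.06), and a pR-Ea activity of 0.42 (SE 0.05). Chromosome 11, 23913501 to 23914000, the bin beside rank 5, had 98377 and 7633 reads, an activity of 3.35 (SE 0.06), beside a pPGK activity of 2.10 (SE 0.06) and a pR-Ea activity of 0.66 (SE 0.03). Both are strong with SCP1 and above 0 with pR-Ea by many times the SE. Chromosome 11, 75071501 to 75072000, had 1.53 (SE 0.07), 0.97 (SE 0.04) and 0.60 (SE 0.03). Chromosome 15, 42419001 to 42419500, had 1.65 (SE 0.04), 1.35 (SE 0.05) and 0.41 (SE 0.04). In chromosome 12, 42071001 to 42071500, pPGK activity was the higher one, at 1.06 (SE 0.07) against 0.94 (SE 0.08) with SCP1, and pR-Ea activity was 0.54 (SE 0.06).

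At the threshold the values on both sides were alike. The members just inside had a lower activity of 0.80, at chromosome 4, 128405001 to 128405500, chromosome 19, 4154501 to 4155000, and chromosome 13, 95874501 to 95875000. The bins just outside, chromosome 13, 112768001 to 112768500, chromosome 10, 77814001 to 77814500, and chromosome 14, 122878001 to 122878500, were also at 0.80 when rounded. Of the members, 262 had a lower activity under 0.9, while the median SE over positions of a single value was 0.22 with SCP1 and 0.21 with pPGK. Bins on either side of the edge therefore differ by less than their error.

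Members had more reads per position as well as more positions in the reporter. The median member held its SCP1 reads on 112.5 reporter and 77 input positions, against 67 and 76 in all kept bins, and its pPGK reads on 44 and 18, against 35 and 20. Counting each distinct position as 1 in place of its reads left 108 bins at or above 0.8 with both promoters, of which 57 were among the 782. At chromosome 11, 23914001 to 23914500, 77300 SCP1 reporter reads lay on 381 positions and 5523 input reads on 281. Counted by distinct positions, pPGK activity turned below 0 at rank 3 (-0.24), rank 6 (-0.20) and rank 9 (-0.34), and at 3 of the deepest bins, chromosome 11, 23913501 (-0.29) and 75071501 (-0.28), and chromosome 15, 42419001 (-0.17). Such a count does not grow when more reads fall on the same positions, which limits it at bins with many reads. At rank 3 the pPGK reporter had 16392 reads on 108 positions and the input 1199 reads on 81. Leaving out the position with most reads in each count gave 890 bins, 673 of them members.

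With the pR-Ea promoter, whose activity the rule did not use, more members lay above 0 than bins in general. That pR-Ea values are below the SCP1 and pPGK values of members follows from the choice of members and is not a result. Median pR-Ea activity was 0.36 in the 782 members and -0.02 in all kept bins. It was above 0 in 612 members (78.3%), against 48.4% of kept bins. At or above 0.8 were 75 members (9.59%), where 1048 of the 30946 kept bins (3.39%) reached that level, and 14 members (1.79%) were at or below -0.8, where 12.2% of kept bins were. The exact 95% interval of the pR-Ea ratio, which covers counting error only, lay above 0 in 472 members (60.4%) and below 0 in 73 (9.34%), against 31.2% and 33.8% of kept bins. The median member ranked at percentile 77.0 of all kept bins by pR-Ea activity, and 208 members (26.6%) were among the top 10% of bins.

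Bins high with 1 promoter only lay between the members and the rest with pR-Ea. Median pR-Ea activity was 0.19 in the 1256 bins that passed 0.8 with SCP1 and not pPGK, and 0.24 in the 1847 that passed with pPGK and not SCP1. The shares at or above 0.8 were 6.93% and 6.77% of these lists. Within the members, whose range of SCP1 and pPGK values is cut at 0.8, pR-Ea values were also set against strength: in 4 groups of 195 or 196 members, ordered by the lower of SCP1 and pPGK activity, its median was 0.30, 0.29, 0.38 and 0.43 from weakest to strongest. Across the 782 members, which are regions of the same 3 pairs of libraries and not replicates, pR-Ea activity had a Pearson r of 0.19 and a Spearman rho of 0.14 with that lower value, against 0.58 and 0.46 over all kept bins. Members made up 7.16% of the 1048 bins with pR-Ea activity of at least 0.8 and 2.53% of all kept bins. Bins that passed with neither SCP1 nor pPGK made up 72.6% of those 1048, against 87.4% of all kept bins.

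**Figure D3:**
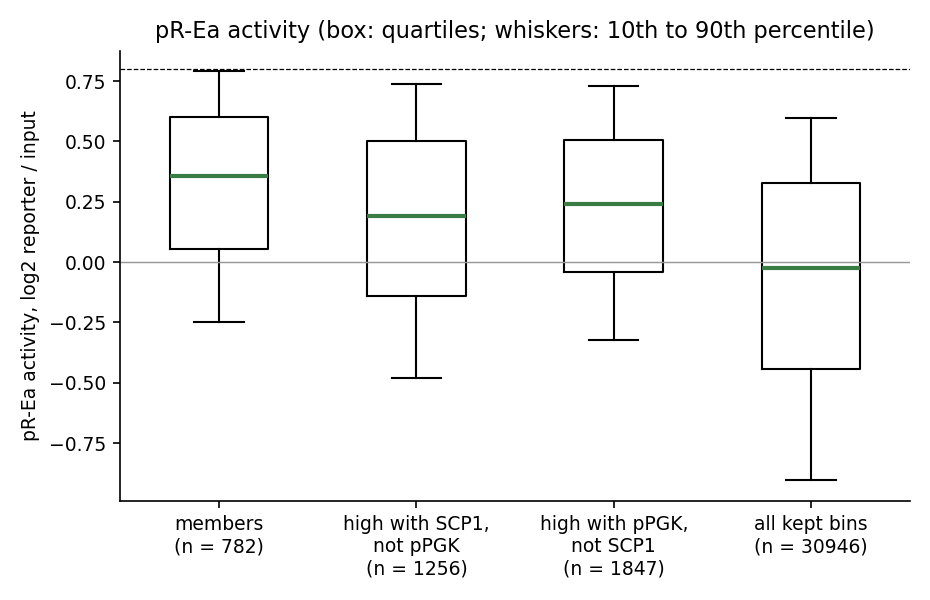
pR-Ea activity (y, log2 reporter over input) in the members, in bins high with 1 of the other promoters, and in all kept bins; boxes are quartiles with the median in green, whiskers the 10th and 90th percentiles, and the dashed line is 0.8. The members' median of 0.36 is the highest of the 4 and that of all kept bins, -0.02, the lowest.

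None of the 5 members highest with pR-Ea was among the 10 strongest by the lower of SCP1 and pPGK activity. Since those are only 10 of 782 members, the lack of overlap says little. Chromosome 1, 30930001 to 30930500, led with 1428 reporter and 194 input reads, an activity of 1.44 (SE 0.17, 95% interval 1.22 to 1.67), beside 1.29 with SCP1 and 0.84 with pPGK. Chromosome 12, 88784001 to 88784500, had 500 and 71 reads and an activity of 1.36 (SE 0.19), and chromosome X, 136966001 to 136966500, had 538 and 80 reads and 1.30 (SE 0.18). The other 2 of the top 5 were chromosome 6, 3082501 to 3083000 (1.21, SE 0.18), and chromosome 3, 65761501 to 65762000 (1.19, SE 0.13). At these 5 sites pR-Ea activity was above SCP1 activity, which ranged from 0.80 to 1.29 with an SE of 0.18 to 0.30. The gap was smaller than the SCP1 SE at all of them but chromosome X. The sites were picked for high pR-Ea activity, which favours this order, so it is not a result. Rank 2 of the strongest members, at 1.18 (SE 0.04) with pR-Ea, was close to the fifth of these sites. In the 4 groups by strength, 17, 14, 15 and 29 members were at or above 0.8 with pR-Ea, from weakest to strongest. Members at or above 1 with all 3 promoters numbered 10.

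Below 0 with pR-Ea were 170 members (21.7%), and the 5 lowest were as follows. Chromosome 4, 155153001 to 155153500, had 40 reporter and 78 input reads with pR-Ea, an activity of -2.38 (SE 0.50, 95% interval -2.99 to -1.83). The same bin had 1053 and 147 reads with SCP1, an activity of 2.49 (SE 0.34), and 490 and 92 with pPGK, an activity of 1.15 (SE 1.30). Its pPGK value rested on 1 position with 74.5% of the reporter reads, so the contrast at this site is firmer against SCP1 than against pPGK. Chromosome 11, 68084001 to 68084500, had 32 reporter and 54 input reads and a pR-Ea activity of -2.17 (SE 0.45), beside 0.83 (SE 0.36) with SCP1 and 1.33 (SE 0.28) with pPGK. The next were -2.02 (SE 0.32) in chromosome 16, 95006501 to 95007000, -1.74 (SE 0.83) in chromosome 7, 67990001 to 67990500, and -1.49 (SE 0.38) in chromosome 2, 26226501 to 26227000. Reporter positions with pR-Ea numbered from 7 to 27 in these 5 sites, against a median of 76 in all members.

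In stimulated cells the members kept a high output from pPGK. The PMA_I library shares its input with pPGK, whose counts chose the members, so its activity is not independent of the rule. PMA_I activity in members had a median of 1.26, against 0.28 in all kept bins, and 682 members (87.2%) were at or above 0.8, where 22.7% of kept bins were. The 1847 bins high with pPGK and not SCP1 were no lower, with a median of 1.32 and 89.2% at or above 0.8, so this level is not particular to the members. In the 2038 bins chosen on SCP1 activity, where pPGK enters only through the minimum of input reads, the median PMA_I activity was 0.85 and 53.0% reached 0.8. Dividing by the input counts listed in the pPGK file gave a median of 1.03 in members and 0.04 in all kept bins. At a score of at least 30 the PMA_I file keeps 71.7% of those input reads and the pPGK file 58.9%.

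Reporter reads of PMA_I and pPGK were then compared directly. The pPGK reporter count also chose the members, so a lower ratio in members is not independent of that choice. Bins chosen on SCP1 alone are given beside them for the 2-fold call, and were not run at the 1.5-fold size. The log2 ratio had a median of -0.04 in members and 0.02 in all kept bins, and its values lay from -1.35 to 1.86. A bin was called when the ratio was at least 2-fold, its exact 95% interval excluded equality and the counts held at least 50 reads together. By this rule 6 of 782 members (0.767%) were higher in PMA_I and 3 (0.384%) lower, where 1.28% and 0.502% of the 30847 bins with enough reads were called. In bins chosen on SCP1 alone 14 of 2038 (0.687%) were higher and 32 (1.57%) lower, with a median of -0.05. The 3 members called lower are near the background share, and at a 1.5-fold size 25 members (3.20%) were higher and 57 (7.29%) lower, where 6.87% and 3.77% of bins were. At 2-fold the members thus exceeded the background on neither side, and at 1.5-fold on the lower side only.

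The 6 members called higher all lost many pPGK reads to the filter on mapping quality, a score of how surely a read belongs to 1 place. Only positions scored at least 30 were used, which kept 66.7% of pPGK reporter reads and 100% of PMA_I reporter reads. In these 6 members between 52.6% and 88.6% of pPGK reporter reads had been left out in this way, taken as the drop in the bin's count under the filter, against a median of 2.26% in members not called, of which 59 of 773 also lost over 50%. Chromosome 8, 13920501 to 13921000, held 5080 PMA_I and 1216 pPGK reads, a log2 ratio of 1.86 (SE 0.55), with 88.6% left out; without the filter the ratio was -0.57. Chromosome 2, 6266001 to 6266500, held 7348 and 2381 reads, a ratio of 1.42 (SE 0.24), with 83.4% left out and -0.58 without the filter. The next ratios were 1.25 (SE 1.08) in chromosome 17, 46900501 to 46901000, 1.15 (SE 0.38) in chromosome 1, 5063001 to 5063500, and 1.09 (SE 0.99) in chromosome 7, 107644001 to 107644500; without the filter that of chromosome 1 was -1.05. The ratio thus changed sign without the filter in 3 of these 5 sites. When a position was used only if no file scored it below 30, 0 of 757 members were called higher and 7 (0.925%) lower, where 0.79% and 0.393% of bins were. When every score was used, 16 of 969 members (1.65%) were higher and 13 (1.34%) lower, where 6.23% and 3.64% of bins were.

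The members called lower in PMA_I included sites with few discarded reads. Chromosome 13, 47201501 to 47202000, held 1119 PMA_I and 2066 pPGK reads, a log2 ratio of -1.09 (SE 0.15, 95% interval -1.19 to -0.98), with 5.32% of pPGK reads left out. Chromosome 11, 120299001 to 120299500, held 174 and 328 reads, a ratio of -1.11 (SE 0.32), with none left out, on 4 PMA_I and 5 pPGK reporter positions. Chromosome 6, 3082501 to 3083000, held 168 and 374 reads, a ratio of -1.35 (SE 0.56), with 58.2% left out. Chromosome 15, 36868001 to 36868500, and chromosome 9, 122860001 to 122860500, followed at -0.98 (SE 0.18) and -0.95 (SE 0.41), under the 2-fold size.

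**Figure D4:**
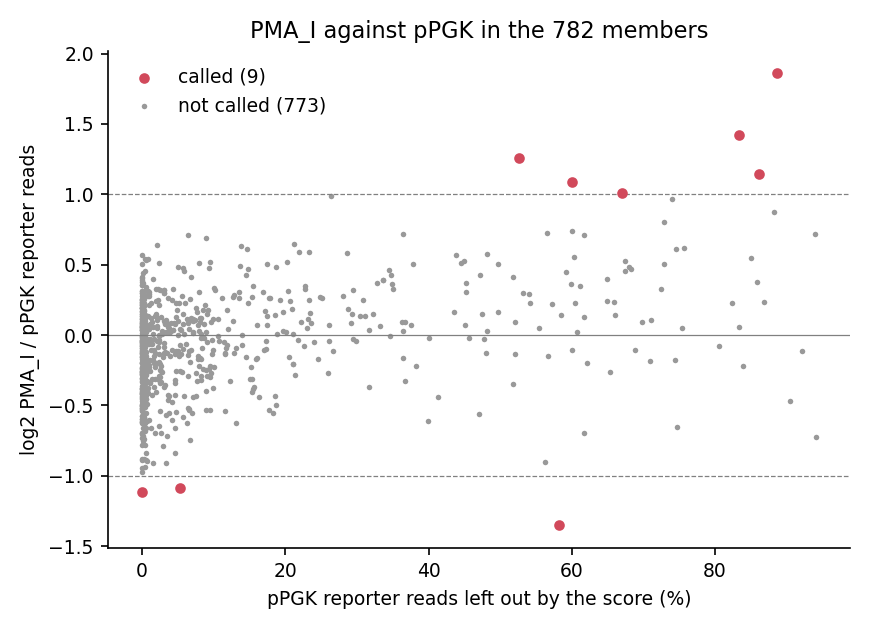
Log2 ratio of PMA_I to pPGK reporter reads (y) in the 782 members against the share of their pPGK reporter reads left out by the score filter (x, percent); called members are red and dashed lines mark 2-fold. The 6 called higher all lie past 50% on the x axis, and 2 of the 3 called lower lie below 10%.

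Most members stood alone, and those with another member nearby mostly touched it. The 782 bins formed 706 separate stretches, of which 634 were a single bin, 69 had 2 bins, 2 had 3 and 1 had 4. Another member lay within 5 kb of 162 members (20.7%), against 2.34% of all kept bins, and within 50 kb of 200 (25.6%), against 8.07%. Touching bins count here and make up most of these members, and a bin edge can divide 1 site. The shares therefore do not show that separate sites lie close together. The longest stretch was chromosome 13, 91313001 to 91315000, where SCP1 activity in the 4 bins ran from 1.65 to 2.10, pPGK activity from 0.95 to 1.72 and pR-Ea activity from 0.22 to 0.72. In that stretch 74.4% to 93.9% of pPGK reporter reads had been left out by the score. Runs of neighbouring kept bins, which are set by input reads and do not measure accessibility, were alike in members and all kept bins. Of members 47.3% stood alone among kept bins and 3.96% were in runs of 4 or more, against 47.1% and 3.87% of all kept bins. Of bins high with pPGK and not SCP1, 60.0% stood alone. Chromosome 2 held most members, 85 or 3.58% of its kept bins, and among chromosomes with members the share was lowest on chromosome 18, at 12 of 964 (1.24%).

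Output declined within a bin or so of a member. The 292 kept bins that touch a member without being one had a median SCP1 activity of 0.50, a median pPGK activity of 0.44 and a median pR-Ea activity of 0.23. In the 104 kept bins 1000 bp away that are not members, the SCP1 median was 0.08, the pPGK median 0.30 and the pR-Ea median 0.18. These were still above the medians of all kept bins, -0.16, 0.07 and -0.02. For SCP1 and pPGK a decline follows from choosing the bin for its height. With pR-Ea, where the bin was not chosen for its height, the weighted profile was flat across the bin at 0.34 to 0.39 and was 0.17 to 0.22 at 650 bp on either side. In all kept bins the pR-Ea profile was between 0.01 and 0.02 within 150 bp of the centre.

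**Figure D5:**
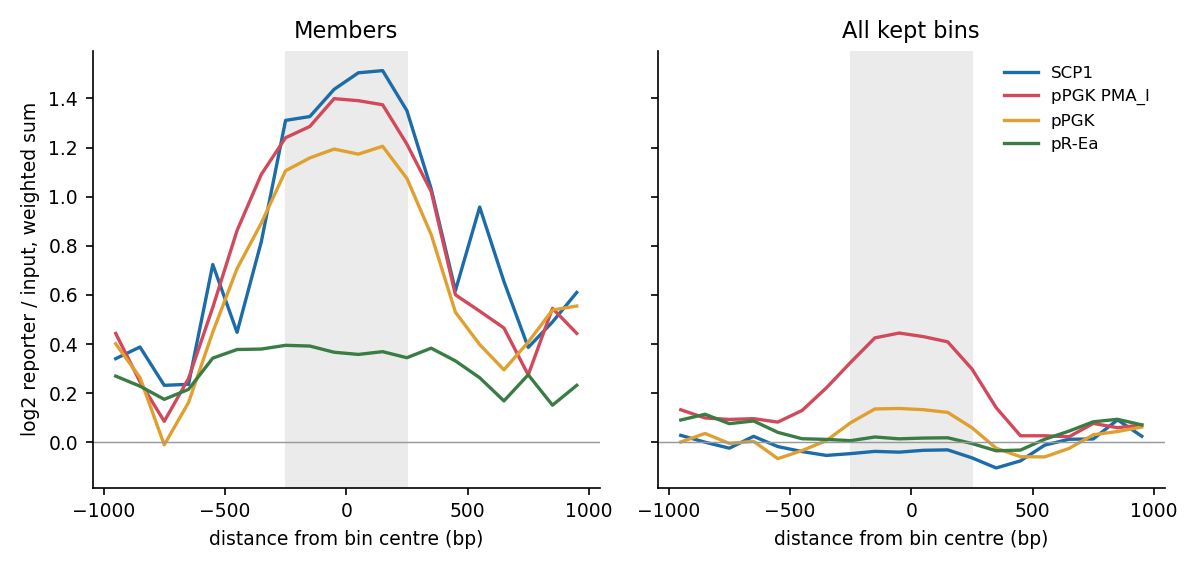
Log2 of reporter over input reads (y), summed over bins with each bin weighted by 1 over its input reads so that bins count alike, against distance from the bin centre (x, bp, steps of 100 bp), for the members and for all kept bins; the 500 bp bin is shaded. In members the SCP1, pPGK PMA_I and pPGK curves peak inside the bin, and the pR-Ea curve is a low plateau near 0.36. Over all kept bins the pPGK PMA_I curve reaches 0.44 near the centre.

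Strands were compared next; for SCP1 and pPGK this divides the values that chose the members, and pPGK had far fewer input positions. Positions listed on 1 strand only were counted, in bins with at least 20 input reads on each strand. With SCP1 621 of 736 members (84.4%) were at or above 0.8 on both strands, against 5.24% of kept bins. With pPGK 272 of 613 members (44.4%) were, against 2.80% of kept bins. With pPGK 56 of the 613 members passed 0.8 on 1 strand and were below 0 on the other, against 1927 of 23319 kept bins. With SCP1 8 of 736 members did, against 243 of 28787 kept bins. Such discordance was thus about as frequent in members as in kept bins. With pR-Ea 501 of 704 members (71.2%) were above 0 on both strands, against 42.3% of kept bins. Whether the strand marks the orientation of the insert or the end that was read was not tested.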

How the data were processed

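CapStarr-seq reads of P5424 cells were analysed from 4 files without headers. The tools listed per the submitters' processing notes are bedtools 2.28.0, SAMtools and Bowtie2, and the build is mm9, with no roles or settings. The deposited counts are whole numbers per 5′ end: column 7 was read as reporter and column 8 as input, which rests on column 8 being equal at all 5258758 positions shared by both pPGK files. The deposited mapping quality score was at least 30 throughout the SCP1 and pR-Ea files; 66.7% of pPGK reporter reads had such a score. Reads at scores of at least 30 were placed in 500 bp bins by the midpoint of the 315 bp fragment. A 5′ end listed on both strands was counted as 1, on the plus strand. Ratios used a pseudocount of 1; intervals are exact (Clopper-Pearson, 95%), covering counting error only, since PCR copies are not independent. The SE is over positions. The rule and the calls were run on simulated counts drawn independently for each bin (Python 3.11.15, scipy 1.17.1). Such counts hold no PCR copies, so that run does not show how the calls behave on these reads. The members, alternatives and lists were chosen with earlier results of these data known. Sites are named by fixed ranks: the 10 strongest, the 5 deepest, the 5 at each end by pR-Ea activity and by PMA_I over pPGK, 3 on each side of the threshold, and the longest stretch. Gene lists, motifs and base composition were planned and not run, since the reference is of build GRCm38.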

Additional observations from a re-analysis of the deposited data

Results flagged for a closer look

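Among the 782 members, 14 (1.79%) had a pR-Ea activity at or below -0.8 while SCP1 and pPGK activity were at or above 0.8. Of all kept bins, 12.2% were at or below -0.8 with pR-Ea, so such values were less frequent in members. With 1 library per promoter the difference between promoters at these bins was not tested. The most extreme was chromosome 4, 155153001 to 155153500, at -2.38 with pR-Ea, or -1.22 by distinct positions. Its pPGK activity of 1.15 had an SE of 1.30.

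Reads outside the comparison differed at some sites. In the 6 members called higher in PMA_I than in pPGK, positions scored below 30, which were not used, held a median of 75.2% of the pPGK reporter reads.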

How the results depend on the processing

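No paired analysis was possible because each group holds 1 library. The median pR-Ea activity of members stayed between 0.27 and 0.41 under every setting except distinct positions. The cause of the moves below was not tested except where the setting itself sets the number of bins.

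Distinct positions gave 108 members, median pR-Ea activity 0.16, median PMA_I activity 0.76 and median PMA_I over pPGK -0.37, with 2 members at or above 0.8 and 0 at or below -0.8 with pR-Ea, and 0 higher and 0 lower in PMA_I. At or above 0.8 with pR-Ea were 1.85% of these members and 0.514% of kept bins. Only 69 of the members had enough counts for a PMA_I call, and 1.37% of bins were higher and 0.183% lower. An input minimum of 20 gave 1313 members, with 134 (10.2%) at or above 0.8 and 54 at or below -0.8 with pR-Ea. Of the bins kept at that minimum, 4.34% were at or above 0.8 with pR-Ea. In PMA_I 14 of these members (1.07%) were higher and 16 (1.22%) lower, where 2.11% and 0.9999% of bins were. A minimum of 100 gave 5 members low with pR-Ea. With that minimum 3 members (0.559%) were higher in PMA_I and 1 (0.186%) lower, where 0.992% and 0.311% of bins were. A threshold of 0.6 gave 1733 members, 147 (8.48%) and 25 with pR-Ea, and median PMA_I activity 1.10. Of those members 11 (0.635%) were higher and 6 (0.346%) lower, where 1.28% and 0.502% of bins were. A threshold of 1 gave 358 members, and 39 (10.9%) and 3 with pR-Ea. At either threshold 3.39% of kept bins were at or above 0.8 with pR-Ea. A pseudocount of 10 left 48 (7.34%) at or above 0.8 with pR-Ea, where 2.27% of bins were.

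Without a score filter the median PMA_I over pPGK was 0.37 in members and 0.45 in all kept bins, the median PMA_I activity 1.5, and 16 members were higher and 13 lower. With positions that no file lists below 30 these were a PMA_I activity of 1.05, 0 higher and 7 lower. Restricting members to those with at most 10% of pPGK reads at low scores, an alternative chosen after seeing the data, left 568 members with 42 and 9 on the pR-Ea sides, 0 higher and 2 lower. Of them 7.39% were at or above 0.8 with pR-Ea and 0.352% were lower. All bins, not held to that limit, had 3.39% at or above 0.8, 1.28% higher and 0.502% lower. The pPGK file's input, also added afterwards, gave a PMA_I activity of 1.03. Median scaling gave a PMA_I activity of 1.04 and 5 lower (0.599%, where 0.564% of bins were). The minus strand fragment gave 5 lower (0.643%, where 0.653% were). Bins shifted by 250 bp gave 1 lower (0.126%, where 0.477% were), and removal of the top position 30 lower. A 1.5-fold size gave 25 higher (3.20%, where 6.87% of bins were) and 57 lower (7.29%, where 3.77% were). The 30 lower members without the top position are 3.38%, where 1.6% of bins were lower. Under these settings the lower side is not independent of the choice of members, since the pPGK reporter chose them. How much that choice sets it was not tested. At 2-fold in the main setting, 29 of 1256 bins high with SCP1 and not pPGK (2.31%) were lower. So were 12 of the 2629 bins chosen on pPGK (0.456%), where 0.502% of all bins were. Bins chosen on SCP1 alone had 162 (7.95%) and 61 (2.99%) on the pR-Ea sides and a PMA_I activity of 0.85. Of them 14 (0.687%) were higher and 32 (1.57%) lower, where 1.28% and 0.502% of bins were. Bins chosen on pPGK alone had 200 (7.61%) and 53 (2.02%) on the pR-Ea sides, where 3.39% and 12.2% of kept bins were.

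Of 478 values for named bins under alternatives, 383 moved by less than their SE, 81 moved further and 14 changed sign. By distinct positions pPGK activity changed sign in 6 bins: -0.29 at chromosome 11, 23913501; -0.28 at chromosome 11, 75071501; -0.17 at chromosome 15, 42419001; -0.20 at chromosome 19, 43786001; -0.34 at chromosome 2, 6265501; and -0.24 at chromosome 2, 93400001. The ratio of PMA_I to pPGK changed sign by distinct positions at chromosome 6, 3082501 (0.88) and chromosome 7, 107644001 (-0.14). It changed sign without a score filter at chromosome 1, 5063001 (-1.05), chromosome 2, 6266001 (-0.58) and chromosome 8, 13920501 (-0.57). With positions that no file lists below 30 it changed sign at chromosome 17, 46900501 (-0.041) and chromosome 7, 107644001 (-0.013), and with the minus strand fragment at chromosome 1, 5063001 (-0.23). Bin values under the 250 bp shift were not computed, since the bins differ.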

Other observations

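The members held 6.52% of the reporter reads of kept bins in pPGK PMA_I against 2.73% of the input reads, and with pR-Ea 3.45% against 2.52%. The SCP1 and pPGK shares were set by the choice of members, and the PMA_I input is that of pPGK.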
